A study of Mus musculus with 16 samples.

Results

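Promoters that serve noncoding transcripts only were examined in chromatin accessibility profiles of activated mouse B cells. Peaks from 8 ATAC-seq libraries that touched or overlapped were joined into 16566 combined regions. A region was kept when its centre lay between 1000 bp upstream and 100 bp downstream of an annotated transcript start site and no start site of a protein-coding gene lay within 1000 bp of that centre. This rule, which uses position and annotation alone, gave 419 regions, or 2.53% of all combined regions, assigned to 413 genes of GENCODE release M21 on mm10 (GRCm38). They are called noncoding promoters here. Of the other regions, 8792 (53.1%) were promoters of protein-coding genes, called coding promoters, and 7236 lay outside every promoter window and are called distal regions. A further 119 had a noncoding start site in the window and a coding one within 1000 bp.

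ATAC-seq uses a transposase that inserts sequencing adapters into open chromatin. The libraries came from splenic B cells of C57BL/6 mice, purified with CD43 microbeads, activated in culture by LPS (10 µg/mL) together with IL-4 (20 ng/mL), and processed at 50000 cells per library. The culture time is given as 72 hours in the sample labels and as 96 hours in the series text. The 4 control libraries carried Brg1fl/+ CD23Cre +/- and the 4 test libraries Brg1fl/fl CD23Cre +/-, so every library came from cells that carried Cre and at least 1 floxed allele of Smarca4, the gene for Brg1. CD23-Cre is active in mature B cells, and controls are therefore expected to lack 1 Brg1 allele rather than none. The deletion itself was not checked here, since peak lists do not measure it. How many mice stood behind each genotype is not given in the sources used here. The names of the deposited lists pair libraries 1 with 2 and 3 with 4 of each genotype, and p-values measure the spread between these libraries only, which may be technical.

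Brg1 is the ATPase of the BAF (SWI/SNF) complexes, which slide or evict nucleosomes at promoters and enhancers. Noncoding promoters drive long noncoding RNAs, hosts of small nucleolar RNAs and microRNAs, transcribed pseudogenes and the small structural RNAs of splicing, ribosome production and protein export. Small RNA genes use RNA polymerase II or III with promoter layouts of their own, in which a proximal and a distal sequence element lie upstream of the start in genes for the U snRNAs. In B cells the immunoglobulin heavy chain locus also produces noncoding transcripts through its switch regions, repeats that are recombined when a cell changes antibody class.

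The genome sequence around 5 summits is printed because the comparisons below return to these members. A summit is the point of highest fragment coverage in a peak. Gm24022, Gm6787 and A930006K02Rik were the members whose summit height was called different between genotypes in the main fit. Each of these calls was lost in some of the alternative settings. Snhg8, a snoRNA host, and Rnu3b1, a U3 snoRNA gene, each stood among the highest-ranked members of their list. Each stretch is read 5' to 3' on the strand of the transcript from the mm10 (GRCm38) reference, with 99 bases on each side of the summit and motif matches on either strand in capitals. The positions are chr12:113424778-113424976 on the minus strand for Gm24022, chrX:8096598-8096796 on the plus strand for Gm6787, chr16:91464825-91465023 on the plus strand for A930006K02Rik, chr3:123508325-123508523 on the minus strand for Snhg8 and chr11:87442939-87443137 on the plus strand for Rnu3b1. In Gm24022 the capitals mark GAGCT and GGGGT, the short repeat units of switch regions, which were searched there after its values were seen. In the other sequences they mark matches of the GC box, the CCAAT box, the TATA box and the ETS and YY1 motifs, whose letters are given with the motif counts further on, and in Gm6787 a GC box and the YY1 match overlap.
Gm24022: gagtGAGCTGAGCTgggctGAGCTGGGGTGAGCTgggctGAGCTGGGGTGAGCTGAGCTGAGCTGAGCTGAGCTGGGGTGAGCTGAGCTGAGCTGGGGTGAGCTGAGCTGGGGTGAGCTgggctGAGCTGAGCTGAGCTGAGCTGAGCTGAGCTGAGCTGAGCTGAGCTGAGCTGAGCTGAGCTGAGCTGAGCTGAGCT
Gm6787: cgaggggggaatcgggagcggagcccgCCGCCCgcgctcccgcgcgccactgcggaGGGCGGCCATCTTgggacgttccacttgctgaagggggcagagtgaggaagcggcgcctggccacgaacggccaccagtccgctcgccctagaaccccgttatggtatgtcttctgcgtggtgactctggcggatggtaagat
A930006K02Rik: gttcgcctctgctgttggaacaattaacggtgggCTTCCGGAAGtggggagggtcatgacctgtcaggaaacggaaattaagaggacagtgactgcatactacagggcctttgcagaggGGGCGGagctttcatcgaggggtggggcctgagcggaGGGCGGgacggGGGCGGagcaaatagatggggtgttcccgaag
Snhg8: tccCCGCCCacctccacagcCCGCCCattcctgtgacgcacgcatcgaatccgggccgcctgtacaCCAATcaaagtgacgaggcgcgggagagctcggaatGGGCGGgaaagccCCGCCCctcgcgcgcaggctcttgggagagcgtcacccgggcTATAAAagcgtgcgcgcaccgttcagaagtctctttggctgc
Rnu3b1: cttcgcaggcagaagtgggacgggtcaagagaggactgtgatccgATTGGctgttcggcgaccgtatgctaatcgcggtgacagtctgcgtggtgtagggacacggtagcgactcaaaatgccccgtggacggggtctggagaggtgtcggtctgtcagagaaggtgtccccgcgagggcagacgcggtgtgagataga
The Gm24022 window was almost wholly made of the switch repeat units. Snhg8 held 4 GC boxes, 1 CCAAT box and 1 TATA box within its 199 bases, whereas Rnu3b1 held a CCAAT box alone among the motifs searched.

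Each library was deposited as its own peak list, and the lists differed in length. The Brg1fl/+ libraries 1 to 4 held 14614, 11283, 6372 and 7632 peaks, and the Brg1fl/fl libraries 9216, 6271, 8500 and 8605. Brg1fl/+ library 1 thus stood apart, and the main comparisons of detection are given with and without it. A median peak at a noncoding promoter rested on 18 to 27 fragments at its summit, against 20 to 47 at coding promoters, so single values carry a wide counting error. At marker genes, peaks at the promoters of Ms4a1 and Pax5 were found in all 8 libraries and at Ebf1 in 6, but at Cd79a and Blnk in 1 each and at Cd79b in none. No library had a promoter peak at any of the 6 myeloid, 3 NK cell or 3 erythroid markers, and Lck, with 1 library, was the sole T cell marker of 6 with one. Of the plasma cell markers, Sdc1 had a peak in 7 libraries, Prdm1 in 2 and Jchain in none.

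Noncoding promoters were open less often than coding promoters and more often than distal regions. The share of the 419 noncoding promoters with a peak was 91.2, 63.5, 30.1 and 38.7% in Brg1fl/+ libraries 1 to 4, and 44.6, 27.9, 41.3 and 42.5% in Brg1fl/fl libraries 1 to 4. In the same libraries 97.5, 85.7, 55.5 and 65.1%, and 72.4, 53.3, 70.1 and 71.3%, of coding promoters had one. Over the 8 libraries the means were 47.5 ± 20.7% and 71.4 ± 14.7% (SD, n = 8), a difference of -23.9 points that had the same sign in 8 of 8 libraries and ranged from -28.8 to -6.33 (two-sided exact sign-flip permutation test, p = 0.00781, the smallest this design allows; Benjamini-Hochberg adjusted p = 0.00893 over 8 such comparisons). The smallest difference was that of Brg1fl/+ library 1, whose long list supplies most of the combined regions. With that library left out and the regions built again, the difference was -19.3 points (exact sign-flip permutation test, p = 0.0156). Against distal regions the noncoding promoters were detected 14.2 points more often, again in 8 of 8 libraries (9.65 to 18.9).

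**Figure D1:**
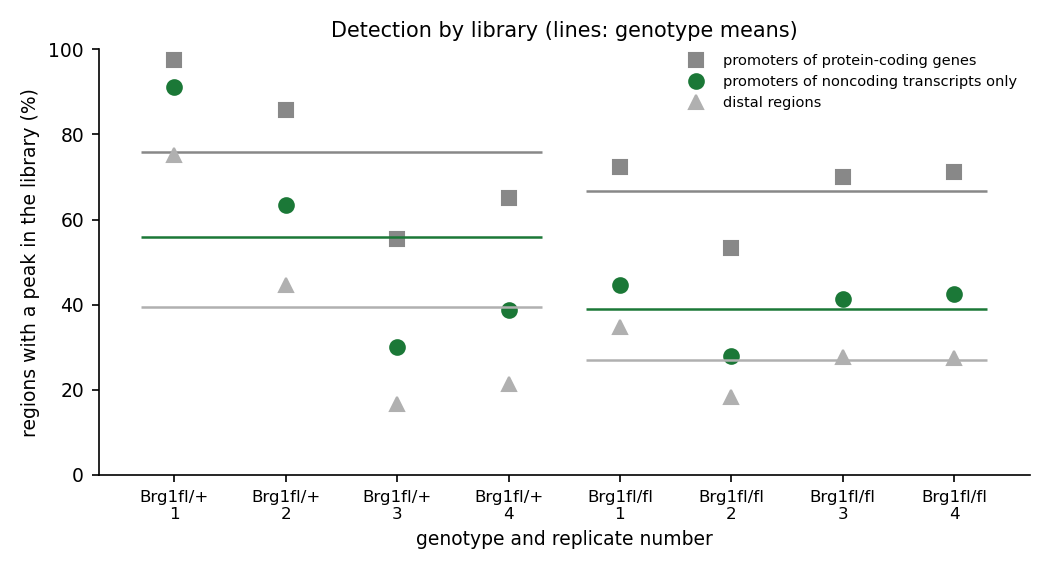
Points show the percent of coding promoters, noncoding promoters and distal regions with a peak in each of the 8 libraries, and lines show the mean of each genotype. In every library the noncoding promoters (27.9 to 91.2%) lie between the other kinds, and Brg1fl/+ library 1 is highest for all 3.

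The height of the peaks followed the same order. The measure is the summit fold, the fragment coverage at the summit over the local background, each with 1 added. It is a ratio per position and does not depend on gene length. The median fold at noncoding promoters was 7.82, 8.60, 8.61 and 8.91 in Brg1fl/+ libraries 1 to 4 and 7.49, 7.76, 8.04 and 7.54 in Brg1fl/fl libraries 1 to 4. It was lower than at coding promoters by 2.04 on average, and higher than at distal regions by 1.74, each in 8 of 8 libraries. Ordered by the authors' q-value rather than by fold, a median noncoding promoter ranked at 49.5 to 58.6% of its library's peaks, where 0 is the peak with the smallest q-value. Ranks named below are of this kind.

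Detection was uneven among the members. Of the 419, 93 (22.2%) had a peak in all 8 libraries, 186 in 2 to 7 and 140 (33.4%) in 1. At coding promoters the share in all 8 was 43.8%, and at distal regions 8.43%. Of the 140 members seen in 1 library, 105 (75.0%) were seen in Brg1fl/+ library 1. Without that library 314 members remained. Members close to the distance limit included Gm48957, 1047 bp from a start of Basp1 and found in 1 Brg1fl/+ library, and Gm30025, 1157 bp from Dcaf5 and found in 1 Brg1fl/+ and 3 Brg1fl/fl libraries. Just outside it lay Gm10605, 996 bp from Tpbgl, and 4930577N17Rik, 912 bp from Elf2 and found in all 8.

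The largest class was the long noncoding RNAs with 251 regions, among them 143 at lincRNA genes, 57 at processed transcripts and 48 at antisense genes. Pseudogenes made up 72, small RNAs 69, gene models that GENCODE lists as TEC (awaiting experimental testing) 24, and immunoglobulin segments 3. The members lay outside the bodies of protein-coding genes in 345 cases, inside one on the opposite strand in 54 and inside one on the same strand in 20. Small RNA promoters were detected in all 8 libraries in 29 of 69 cases (42.0%), long noncoding RNA promoters in 54 of 251 (21.5%), TEC in 3 of 24 (12.5%) and pseudogenes in 7 of 72 (9.72%). Among long noncoding RNAs without a listed role, 1700028E10Rik had the highest rank, with a fold of 15.9 to 19.6 in Brg1fl/+ and 16.9 to 19.3 in Brg1fl/fl, followed by 1810026B05Rik, 16824 bp from the coding start of Chd2. Near-identical copies elsewhere in the genome, of at least 200 bp and 95% identity, were found for 26 of the 69 small RNA regions, 23 of the 72 pseudogenes and 22 of the 251 long noncoding RNAs. Reads from copies cannot be told apart, so folds at these regions are uncertain. In RefSeq, 31 of the 419 lay within 1000 bp of an mRNA start, so the absence of a coding start rests on GENCODE there.

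**Figure D2:**
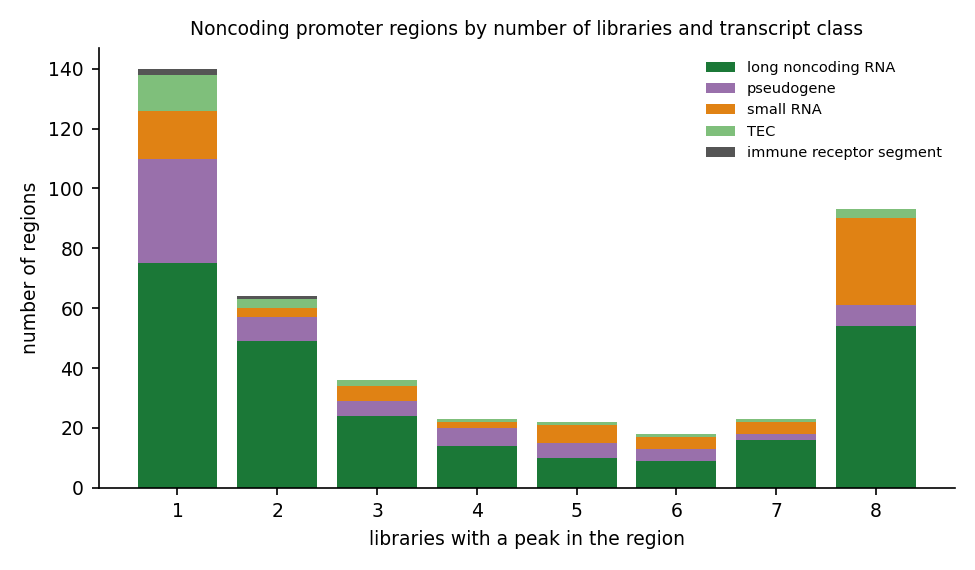
Bars show how many of the 419 noncoding promoter regions had a peak in 1 to 8 libraries, coloured by transcript class. The distribution has its ends at 140 regions in 1 library, 35 of them pseudogenes, and 93 regions in all 8, 29 of them small RNAs.

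Hosts of small nucleolar RNAs, whose introns release the guides that direct modification of ribosomal RNA, gave 10 members. All 10 had their summit within 100 bp of the annotated start, compared with 176 of the 419 members (42.0%). Snhg8 (chr3:123508082-123508842) had a fold of 16.8, 15.4, 15.6 and 15.6 in Brg1fl/+ and 15.3, 12.8, 13.1 and 15.8 in Brg1fl/fl, and the genotypes overlapped. Snhg5, Snhg15 and Dancr were likewise found in all 8 libraries, Epb41l4aos in 7, and Snhg6 and Snhg17 in 3 of each genotype. Dancr (chr5:74092726-74093450), a host gene also named for its role in holding back differentiation, had 15.1, 16.2, 9.26 and 13.4 in Brg1fl/+ and 7.01, 7.25, 11.3 and 9.35 in Brg1fl/fl, and 1 Brg1fl/+ library lay inside the range of Brg1fl/fl. Snhg12, Snhg20 and Snhg7os had a peak in 2 Brg1fl/+ libraries and in no Brg1fl/fl library, and without Brg1fl/+ library 1 each was left with 1. Of 15 annotated genes whose symbol starts with Snhg, 8 had a noncoding promoter region, 4 lay at a coding promoter and 3 had no region, and Gas5 and Zfas1 also lay at coding promoters.

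Of 33 long noncoding RNAs with a known role, 31 were found in the annotation under the symbols used, 15 had a noncoding promoter region, 2 were at coding promoters and 14 had no region. The 15 genes gave 17 regions, 7 of them in all 8 libraries, and Mir17hg, Mir155hg and Mir142hg count here as well as among the microRNA hosts. Malat1 (chr19:5802633-5803888), an abundant nuclear RNA of splicing speckles, had a fold of 13.7, 13.1, 12.5 and 15.5 in Brg1fl/+ and 13.98, 11.8, 12.4 and 13.6 in Brg1fl/fl. Its neighbour Neat1, the scaffold of paraspeckles, was lower, at 6.44 to 7.88 in Brg1fl/+ and 6.52 to 7.19 in Brg1fl/fl. At both genes the ranges of the genotypes overlapped. Ftx, a regulator of Xist, ranged from 6.91 to 11.0 over all 8 libraries, and Crnde from 8.82 to 13.5. Dleu2, the host of miR-15a and miR-16-1 that is lost in chronic lymphocytic leukaemia, had 2 regions in all 8 libraries. At the upstream one (chr14:61682153-61682775) the fold was 10.1, 8.34, 6.13 and 9.06 in Brg1fl/+ and 5.75, 5.30, 5.98 and 5.53 in Brg1fl/fl, with no overlap. This difference missed the threshold after adjustment (log2 difference -0.35 ± 0.12 (SE), adjusted p = 0.0948, limma).

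microRNA genes and hosts gave 25 members, 7 of them in all 8 libraries. Mir17hg (chr14:115041830-115042309), the host of the miR-17-92 cluster that supports lymphocyte growth, had a fold of 6.68, 6.35, 6.05 and 4.57 in Brg1fl/+ and 6.48, 5.42, 7.29 and 6.09 in Brg1fl/fl. Mir155hg, the host of miR-155, which activated B cells need for the germinal centre response, was detected in 3 libraries of each genotype at a fold of 5.98 to 8.71. A separate peak at Mir155 itself, downstream in the same gene, was found in Brg1fl/+ libraries 1 and 2 alone. The highest folds of the list belonged to models annotated as miRNA without a named product, Gm23935 at 26.0 to 28.5 and Gm24270 at 18.2 to 21.7. Gm23935 had 2 near-identical copies elsewhere. Mir8111 had 11.7 to 17.9 in Brg1fl/+ and 9.12 to 11.1 in Brg1fl/fl, which did not overlap, but on the centred log2 scale the genotypes did.

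Small structural RNAs gave 49 members, 23 of them in all 8 libraries. Rn7s2, a gene for the 7SL RNA of the signal recognition particle, had a fold of 14.3, 18.6, 15.7 and 14.97 in Brg1fl/+ and 13.6, 10.7, 14.03 and 16.8 in Brg1fl/fl. Rnu3b1 (chr11:87442854-87443468), 1 of 4 genes for the U3 snoRNA inside Tex14, had 16.0, 17.9, 13.7 and 13.98 against 13.2, 13.4, 14.1 and 13.4. Both had overlapping genotypes and 5 or 6 near-identical copies. Gm27940, a model of the misc_RNA type, had 17.99 to 27.2 in Brg1fl/+ and 24.3 to 26.4 in Brg1fl/fl. Among Y RNA genes, which encode partners of the Ro protein, Rny1 was detected in all 8 libraries and Rny3 in 4 Brg1fl/+ and 1 Brg1fl/fl library. Terc, the telomerase RNA, was detected in 1 library.

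Immunoglobulin gene segments, pseudogene segments included, gave 6 members, of which 5 were detected in 1 library and Ighv8-5 in 2. Igkc, the kappa constant segment, had a peak in Brg1fl/+ library 1 alone, at a fold of 6.27. Of the pseudogenes, 7 were found in all 8 libraries. The highest-ranked were Gm28437, Gm13341 and Gm11410, in which 99.5, 75.9 and 45.6% of 15-base words also occur in the mitochondrial genome, and these were the only members above 10%. Mitochondrial DNA is open to the transposase, and whether its fragments supplied these peaks was not tested. The 2 members Gm26917 and CT010467.1 lie side by side on chromosome 17 and are annotated as a lincRNA and as rRNA. Their folds were 2.04 to 2.50 and 2.13 to 2.43. Their sequence was not compared with ribosomal RNA from elsewhere.

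Noncoding promoters stood between coding promoters and distal regions in base composition. In the 201 bp around the summit the median ratio of observed to expected CpG was 0.65, with 0.87 at coding promoters and 0.33 at distal regions, and the median GC content was 58.7, 66.7 and 53.7%. The members detected in all 8 libraries had a ratio of 0.91, equal to the 0.91 of coding promoters detected in all 8. Members detected in 2 to 7 libraries had 0.68 and those in 1 library 0.44. These ratios were 0.85 and 0.70 at coding promoters and 0.37 and 0.26 at distal regions. The widths of members fell in the same order, with medians of 709, 502.5 and 276.5 bp. So did those of coding promoters (706, 543 and 304 bp) and distal regions (760, 552 and 308 bp). A combined region joins the peaks of all libraries that detect it, so its width can grow with their number.

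Short sequence motifs were counted in the same 201 bp on both strands as a description. The GC box (GGGCGG) occurred in 43.7% of members, 69.0% of coding promoters and 21.7% of distal regions, and in 47.8% of all combined regions. The octamer (ATGCAAAT), bound by the Oct proteins, occurred in 24 members (5.73%), against 1.05% of coding promoters, 2.94% of distal regions and 1.98% of all. Of the 24, 8 were among the 27 snRNA genes. Those 8 octamers had their middle at -226.5 to -175.5 bp from the start, with a median of -216 bp, where the distal sequence element of such genes is known to lie. The search covered only the 201 bp around the summit, which at snRNA members had a median of -186 bp, so the window limits these positions. Near-identical copies were found for 13 of the 27 snRNA members, so the 8 may not be independent. The TATA box (TATAAA) occurred in 5.73% of members and 3.68% of all regions, the ETS motif (CCGGAAG) in 9.31 and 12.7%, and the CCAAT box in 29.8 and 28.3%. PU.1 (GAGGAAGT) gave 5.73 and 2.97%, NF-kB (GGANTTTCC) 3.34 and 1.44%, AP-1 (TGANTCA) 5.97 and 4.81%, and RUNX (TGTGGTTT) 1.91 and 1.65%. The E-box (CACGTG) gave 7.64 and 7.19%, CRE (TGACGTCA) 2.39 and 2.40%, NRF1 (CGCATGCG) 0.716 and 2.74%, YY1 (AAGATGGC) 2.63 and 4.67%, and Staf (ACTACAA) 2.15 and 2.17%.

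Summits of small nuclear and nucleolar RNA genes often lay upstream of the start. Of the 27 snRNA members, 13 (48.1%) had their summit 150 to 250 bp upstream of the start, whereas 30 of 251 long noncoding RNA members (12.0%) and 64 of all 419 (15.3%) did. Among snoRNA members 5 of 12 (41.7%) did, and among pseudogenes 10 of 72 (13.9%), although the median summit of pseudogenes, at -187.5 bp, was close to the -186 bp of snRNA genes. The 4 U3 genes in Tex14 had summits 199 to 200 bp upstream. These 4 share most of their sequence and are not independent.

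**Figure D3:**
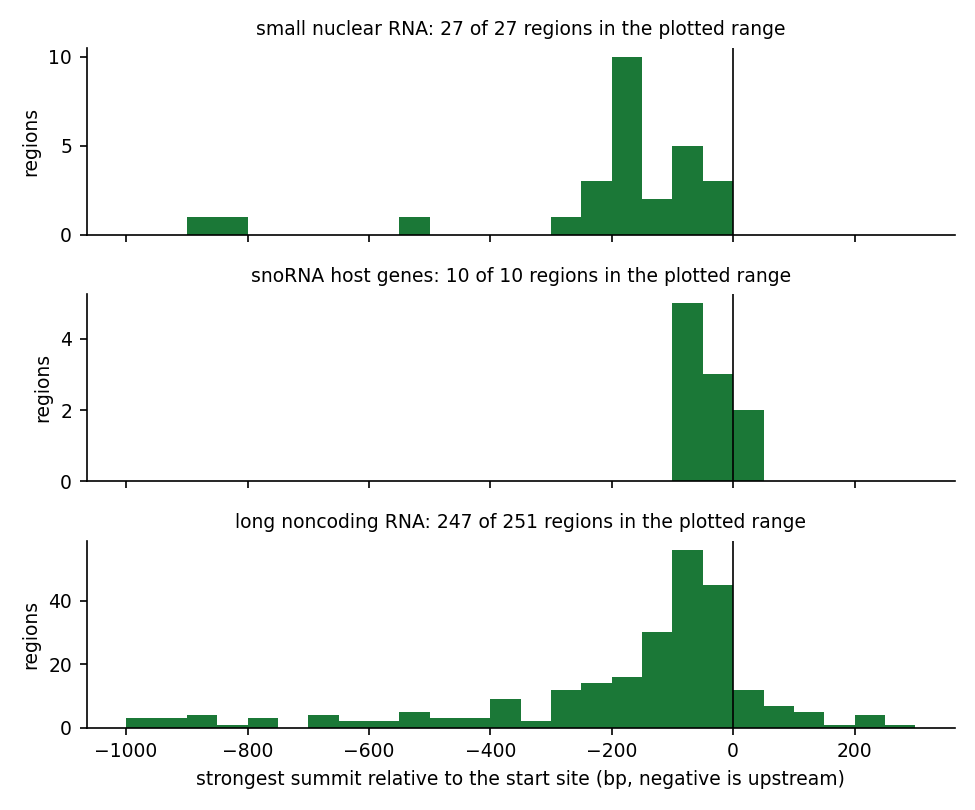
Histograms show the position of the strongest summit relative to the annotated start site, in bp with negative values upstream, for 27 snRNA, 10 snoRNA host and 251 long noncoding RNA members. Of the snRNA members 13 lie 150 to 250 bp upstream, and all 10 snoRNA hosts lie within 100 bp of the start.

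Whether loss of both Brg1 alleles changes the set of open noncoding promoters was asked first by detection. A mean of 55.8 ± 27.5% of members had a peak in Brg1fl/+ and 39.1 ± 7.57% in Brg1fl/fl (SD, n = 4 each), a difference of -16.8 points that did not pass the test (two-sided exact permutation test, p = 0.371, where 0.0286 is the smallest possible). Without Brg1fl/+ library 1 the difference was -6.58 points (p = 0.743, exact permutation), and with lists cut to the same number of peaks it turned to 0.385 points (exact permutation p = 0.771). Taken relative to coding promoters of the same library, the members were detected 20.1 ± 9.36 points less often in Brg1fl/+ and 27.7 ± 1.63 points less often in Brg1fl/fl, a further -7.56 points (exact permutation test, p = 0.0857). The lists of equal length turned this value to 1.46 points (exact permutation p = 0.571). The share of a library's peaks that fell at members was 2.70, 2.53, 2.31 and 2.45% in Brg1fl/+ and 2.12, 2.18, 2.22 and 2.25% in Brg1fl/fl, with no overlap (exact permutation test, p = 0.0286; Benjamini-Hochberg adjusted p = 0.114 over 6 such comparisons). With libraries 1 and 2, and 3 and 4, averaged, no such exact test can go below p = 0.333.

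Member by member, 243 of 419 (58.0%) were detected in fewer Brg1fl/fl than Brg1fl/+ libraries and 47 (11.2%) in more, beside 47.2% and 16.7% of all combined regions. Without Brg1fl/+ library 1, shares of the 3 Brg1fl/+ and 4 Brg1fl/fl libraries were compared in place of numbers of libraries. Equal numbers of libraries thus counted as lower in Brg1fl/fl. The share was lower in Brg1fl/fl at 140 of 314 members and higher at 81. Over all combined regions it was lower at 4667 of 13320 and higher at 4058. By class, detection averaged 56.3 ± 29.3% in Brg1fl/+ and 38.2 ± 7.50% in Brg1fl/fl for long noncoding RNAs and 46.5 ± 29.3% and 26.0 ± 6.93% for pseudogenes. For small RNAs it averaged 68.5 ± 17.4% and 61.6 ± 10.6%. The ranges of the genotypes overlapped in all 3 classes. Without Brg1fl/+ library 1, over the members seen in another library, the difference between genotypes was -7.64 points for long noncoding RNAs and -11.2 points for pseudogenes. For small RNAs it turned to 0.847 points (71.2 ± 12.2%, n = 3, and 72.0 ± 12.4%, n = 4).

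A peak in all 4 Brg1fl/+ libraries and in no Brg1fl/fl library was found at 3 members, beside 0.404% of all combined regions. The reverse was found at 0 members, beside 0.169%. The 3 were all at noncoding genes of unknown function. Gm43121 (chr3:100436718-100437144), 52263 bp from the nearest coding start, that of Tent5c, had a fold of 10.1, 10.3, 6.32 and 9.10 in Brg1fl/+. Gm12066 (chr11:24200262-24200580) had 10.3, 8.01, 5.01 and 9.02, and lay 58042 bp from Bcl11a, a transcription factor gene of B cell development. Its centre was at -997 bp from the Gm12066 start, at the edge of the window. 4930578M01Rik (chr15:98985376-98985947) had 4.7, 5.0, 4.2 and 5.9 on 6 to 10 summit fragments. Absence from a list means only that the region did not pass the authors' peak threshold.

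Peak height was compared at the 93 members detected in all 8 libraries. The log2 fold was centred on each library's median and fitted with limma over all 4593 regions detected in all 8, with Benjamini-Hochberg adjustment over all of them. Lower height in Brg1fl/fl was called at 1 of the 93, beside 1.33% of regions tested, and higher height at 2, beside 1.63%. At an unadjusted p under 0.05, 7 were lower and 15 higher, which is 23.7% of the members beside 22.0% of all regions tested. The median log2 difference was 0.094 at members, 0.019 at coding promoters, 0.114 at distal regions and 0.030 over all regions, and 59 of 93 members (63.4%) lay above 0, beside 55.5% of all. This excess of higher values was lost with quantile normalization in place of median centring, where 10 members were lower and 8 higher at an unadjusted p under 0.05 and the median difference of members was 0.02. The adjusted calls over all regions went from 61 lower and 75 higher to 61 and 50. Those at members numbered 1 and 2 again, but the lower one was then Gm10010 (log2 difference -0.45, limma adjusted p = 0.0461) and no longer A930006K02Rik.

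**Figure D4:**
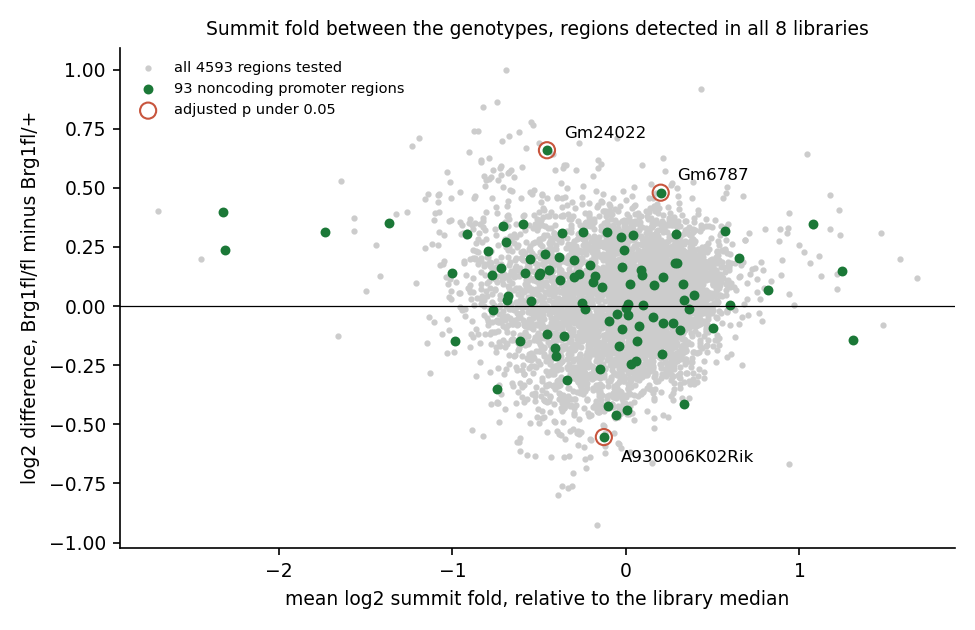
Each point is a region detected in all 8 libraries (grey, 4593 regions; green, 93 noncoding promoters), with its mean log2 summit fold relative to the library median on the x axis and the log2 difference, Brg1fl/fl minus Brg1fl/+, on the y axis. Rings mark the members past the adjusted limma threshold, Gm24022 at 0.66, Gm6787 at 0.48 and A930006K02Rik at -0.55.

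Gm24022 (chr12:113424312-113425255) was higher in Brg1fl/fl. The gene model is annotated as a miRNA, but it lies in the immunoglobulin heavy chain locus, 1582 bp from the Ighm constant gene and 3259 bp from the joining segment Ighj4, where the switch region of IgM is located. The fold was 8.18, 6.66, 8.41 and 5.60 in Brg1fl/+ and 10.2, 8.79, 10.1 and 10.0 in Brg1fl/fl, and all 4 Brg1fl/fl libraries stood above all 4 Brg1fl/+ libraries. These rested on 66, 26, 18 and 14 summit fragments and on 60, 31, 53 and 61. The log2 difference was 0.66 ± 0.14 (SE; limma adjusted p = 0.0221). With single libraries left out, the adjusted p ran from 0.00594 to 0.0701, and it missed the threshold without Brg1fl/+ library 2 (0.0701), Brg1fl/+ library 4 (0.0550) or Brg1fl/fl library 1 (0.0506). Averaged in pairs, it was 0.0386.

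For Gm24022, whose sequence is printed above, the 201-bp window held 31 matches of GAGCT and 5 of GGGGT, where no other member held more than 6 and 4. At least 1 GAGCT occurred in 37.6% of all combined regions and at least 1 GGGGT in 38.1%, and 65 regions held 5 or more GGGGT, but no other region of the 16566 held as many GAGCT. Repeats masked in the reference cover 96.6% of the region, so it was not tested where repeat-rich regions were left out. The search for near-identical copies starts no match in masked sequence, and finding none here says little. How reads were placed among the repeats was not tested. Switch recombination can delete this repeat. The lists hold no measure of copy number, and its part in the difference was not tested.

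Gm6787 (chrX:8096438-8097095), a processed transcript in GENCODE that RefSeq lists as a transcribed pseudogene, lay 6269 bp from the coding start of Was and was also higher in Brg1fl/fl. The fold was 12.1, 11.8, 12.1 and 11.7 in Brg1fl/+ and 14.96, 13.2, 16.0 and 13.8 in Brg1fl/fl, with no overlap. Its log2 difference was 0.48 ± 0.12 (SE; limma adjusted p = 0.0350), but with libraries averaged in pairs the adjusted p was 0.112. With single libraries left out it ran from 0.0188 to 0.105, and it stayed past the threshold without Brg1fl/+ library 3 or Brg1fl/fl library 4 and missed it without any of the other 6. The region has 1 near-identical copy elsewhere. The 2 GC boxes and the YY1 match in its printed sequence lie upstream of the summit.

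A930006K02Rik (chr16:91464702-91465257), a noncoding gene 20258 bp from the coding start of Ifnar1, was lower in Brg1fl/fl. The fold was 15.9, 13.9, 9.96 and 15.6 in Brg1fl/+ and 6.47, 8.06, 9.67 and 8.32 in Brg1fl/fl. The groups did not overlap, though Brg1fl/+ library 3 lay close to Brg1fl/fl library 3. Its log2 difference was -0.55 ± 0.14 (SE; limma adjusted p = 0.0395), with an adjusted p of 0.0568 in pairs, of 0.0573 with quantile normalization and of 0.0553 with the replicate number as a block. With single libraries left out the adjusted p ran from 0.0342 to 0.114, and it missed the threshold without Brg1fl/+ library 1, 2 or 4 or Brg1fl/fl library 1 or 4. No near-identical copy was found, and its sequence held 3 GC boxes and 2 overlapping ETS matches.

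Below the threshold, 9430091E24Rik (log2 difference -0.46, limma adjusted p = 0.0582) and Gm10010 (-0.41, adjusted p = 0.0655) came next on the lower side, named after their values were seen. 9430091E24Rik passed with lists of equal length (adjusted p = 0.0470) and with a replicate block (0.0493), and Gm10010 passed with quantile normalization (0.0461). Dancr had -0.42 ± 0.14 (SE; limma adjusted p = 0.102), Malat1 0.12 ± 0.12 (adjusted p = 0.566), Snhg8 0.05 ± 0.12 (adjusted p = 0.841) and Rn7s2 -0.01 ± 0.13 (adjusted p = 0.962). Gm11410 had a fold of 31.7 to 32.1 in Brg1fl/+ and 24.1 to 25.9 in Brg1fl/fl, but its centred log2 difference was -0.14 with an adjusted p of 0.505. The median fold of coding promoters was lower too, at 10.0 to 11.4 in Brg1fl/+ and 8.80 to 9.55 in Brg1fl/fl. None of the 3 limma calls belonged to the lists of snoRNA hosts, known long noncoding RNAs or small structural RNAs. No member of these lists passed the adjusted threshold in either direction.

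**Figure D5:**
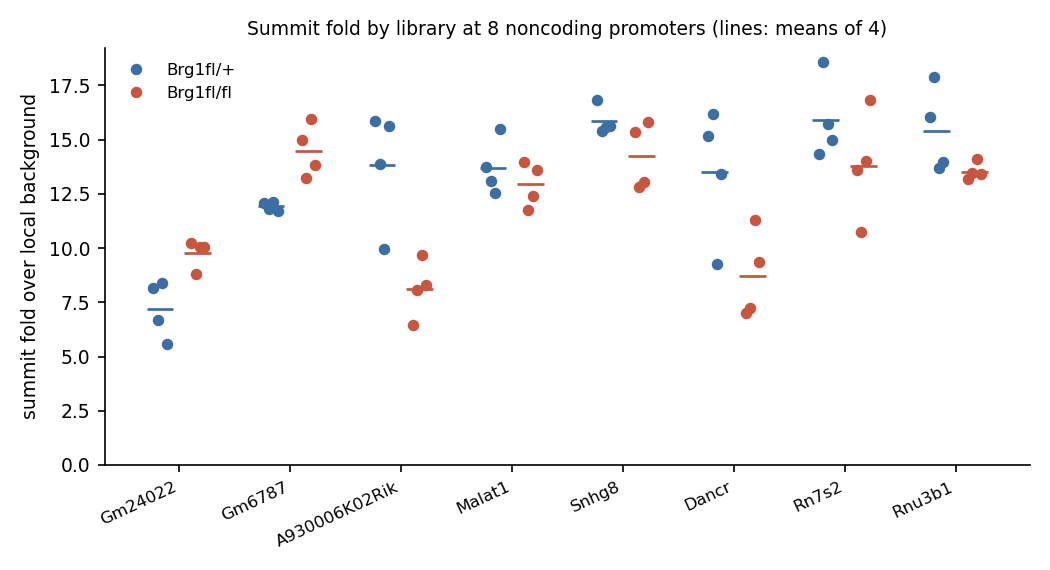
Summit fold in each library over the local background is plotted for 8 noncoding promoters, with blue points for Brg1fl/+, red points for Brg1fl/fl and lines at the means of 4. Values of Gm24022, Gm6787 and A930006K02Rik fall into separate ranges by genotype, and those of Malat1, Snhg8, Dancr, Rn7s2 and Rnu3b1 overlap.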

How the data were processed

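ATAC-seq was analysed in 8 libraries, 4 Brg1fl/+ CD23Cre +/- and 4 Brg1fl/fl CD23Cre +/-, grouped by the genotype label. The 8 RNA-seq samples of the series are not analysed here. Per the submitters' processing notes, reads were aligned to mm10 with Bowtie2 and peaks were called with MACS2, whose versions are not given in the sources used here. Each list was called on 1 library, not on pooled libraries. The authors deposited, for each peak, a fold, a -log10 p-value, a -log10 q-value and a score. The fold is the ratio of summit coverage to local background, each with 1 added. The score was not used. No deposited peak had a -log10 q below 1.31. The lists hold no read totals, so sequencing depth is unknown. Whole fragment counts at the summit were recovered from fold and p for 99.9% of peaks outside the mitochondrial genome, and counting error is the only error they describe. ATAC cut-site shifting and duplicate removal could change summit positions and heights and cannot be undone from the lists.

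Peaks were joined and placed against GENCODE M21 start sites (GRCm38). Each region was assigned the nearest start whose window held its centre. Sequence features were taken from the 201 bp around the strongest summit in RefSeq's copy of GRCm38, with Python 3.11.15, pandas 2.3.3 and pysam 0.24.0, and copies were searched with BLAST 2.17.0. Genotypes were compared by two-sided exact permutation tests over 70 assignments, and kinds of region within libraries by exact sign-flip tests over 256 patterns. Summit folds were compared with limma 3.58.1 in R 4.3.3 on median-centred log2 fold over the 4593 regions detected in all 8 libraries (93 of the 419 members), at a Benjamini-Hochberg adjusted p of 0.05. No pseudocount was added in this step. Fragment counts were recovered by taking fold as summit fragments plus 1 over background fragments plus 1. The lowest background of a peak was 1.30, 0.81, 0.54 and 0.73 fragments in Brg1fl/+ libraries 1 to 4. In Brg1fl/fl libraries 1 to 4 it was 1.67, 0.78, 1.46 and 1.38. At such values the added 1 lowers folds by a degree that differs between libraries. Its part in the genotype differences was not tested. The limma step was tested on simulated data. Members named in the text were the 4 best-ranked of each list by q-value, the 10 best-ranked in all 8 libraries, those with a peak in every library of 1 genotype alone and those passing limma. Other names were chosen after their values were seen. The members and lists were chosen with earlier results of these data known.

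Replicate numbers of the genotypes did not pair the libraries. The correlation of same-numbered libraries' deviations from their genotype means over 4593 regions was 0.01, -0.09, -0.04 and -0.05. Summit fragments of libraries 1 and 2, and 3 and 4, of Brg1fl/+ had a dispersion of 0.882 and 0.757 relative to sampling noise, other Brg1fl/+ pairs 0.870 to 1.17, and Brg1fl/fl pairs 0.801 to 0.860, so libraries of 1 genotype differed by about the sampling noise. The 8 libraries were counted as separate, and averaging in pairs was an alternative. Other alternatives were stricter q values, lists of equal length, other joining distances, other promoter limits, other annotation choices, leaving out repeat-rich regions or single libraries, a replicate block, quantile normalization, regions in at least 6 libraries and -log10 p in place of fold. Leaving out members with copies or near a RefSeq mRNA was added after the data were seen. A marker gene and the promoter sequence of 1 member are not reported here.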

Additional observations from a re-analysis of the deposited data

Results flagged for a closer look

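In 63 groups of 4 libraries, the highest or lowest value was compared with the others by Dixon's rule. The groups held summit folds of named noncoding promoters. They also held library values of members: detection, detection relative to coding promoters, share of peaks, median fold and median rank. About 1 in 20 groups passes this rule by chance, and 4 groups did, all of them summit folds. At Gm24270, a miRNA model inside Peak1, Brg1fl/+ library 2 had a fold of 21.7 and the other Brg1fl/+ libraries 20.9 to 20.99. At Snhg8, Brg1fl/+ library 1 had 16.8 and the others 15.4 to 15.6. At Gm28437, a pseudogene that shares nearly all of its sequence with mitochondrial DNA, Brg1fl/fl library 1 had 3.74 and the others 3.50 to 3.51. At Gm24022 in the IgM switch region, Brg1fl/fl library 2 had 8.79 and the others 10.0 to 10.2, and this library still lay above every Brg1fl/+ library. These folds were not centred by library. Brg1fl/fl library 2 also had a lower median fold at coding promoters, 8.80 against 9.47 to 9.55. On the centred log2 scale the 4 Brg1fl/fl values of Gm24022 had an SD of 0.036.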

How the results depend on the processing

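The lower detection of noncoding than coding promoters held in all 22 alternatives run for it, from -25.0 to -11.7 points, and from -23.7 to -19.3 with single libraries left out. The number of noncoding promoters was 270 at a -log10 q of at least 10, 195 with lists of equal length, 279 for regions in at least 2 libraries and 255 for long noncoding RNA starts alone. The genotype difference in detection turned to 0.385 points with lists of equal length (exact permutation p = 0.771) and ran from -25.4 to -6.58 with single libraries left out. The difference relative to coding promoters turned to 1.46 points with lists of equal length, ran from -9.80 to -4.27 with single libraries left out, and was -9.58 points without members that have copies, where it reached the smallest possible exact permutation p of 0.0286. Members with a lower summit fold in Brg1fl/fl, 1 in the report, numbered 3 at a -log10 q of at least 5, 2 at one of at least 10, 3 with a wider promoter, 2 with coding gene starts only, 5 for regions in at least 6 libraries, 4 on -log10 p, 0 with libraries averaged in pairs and 0 to 1 with single libraries left out (0 without Brg1fl/+ library 1, 2 or 4 or Brg1fl/fl library 1). Members with a higher fold, 2 in the report, numbered 1 with equal lists, with long noncoding RNA starts only, without repeat-rich regions, without copies and in pairs, 8 on -log10 p, and 0 to 7 with single libraries left out (0 without Brg1fl/+ library 2 or 4 or Brg1fl/fl library 1, and 7 without Brg1fl/+ library 3). Gm24022 and A930006K02Rik were not among the regions tested with equal lists or at a -log10 q of at least 10. Without repeat-rich regions Gm24022 was not tested. With equal lists the lower call was 9430091E24Rik (limma adjusted p = 0.0470) and the higher one Gm6787 (0.0343). The count found in all Brg1fl/+ libraries alone was 1 at a -log10 q of at least 10, 1 with equal lists, 6 with a wider promoter, and 3 to 12 with single libraries left out, the 12 without Brg1fl/+ library 3. The reverse count was 0 to 1, the 1 without Brg1fl/+ library 1. Leaving out a library loosens both rules for every region. The shares of all combined regions in these settings are not given, so the counts show nothing particular to members. The cause was not tested in any of these cases. With the replicate block, limma called 1 member lower and 2 higher, but the lower one was 9430091E24Rik (adjusted p = 0.0493) in place of A930006K02Rik (0.0553), and the exact tests of detection gave p = 0.5 and, relative to coding promoters, p = 0.125. Among all regions tested, the calls were 61 lower and 75 higher as reported, 48 and 57 with the replicate block, 19 and 21 in pairs, 212 and 118 for regions in at least 6 libraries, and 126 and 254 on -log10 p. Without Brg1fl/+ library 1, 2, 3 or 4 they were 21 and 39, 19 and 31, 92 and 166, and 37 and 42. Without Brg1fl/fl library 1, 2, 3 or 4 they were 27 and 34, 78 and 44, 40 and 40, and 45 and 44. The regions tested then numbered 4596 to 5193. Joining regions in at least 2 libraries gave no new limma values, since the regions tested were in all 8. Over all members detected in a library, heights rest on a median of 18 to 27 fragments. The 93 members in all 8 had higher median folds, 8.41 to 12.3, against 7.49 to 8.91 over all members detected. Low counts limit single-region calls. The 186 members in 2 to 7 libraries and the 140 in 1 were compared by detection alone, except where fewer libraries were required.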
